A study of Danio rerio with 4 samples.

Results

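Integrins are cell surface receptors built from 1 alpha and 1 beta chain, and the integrin genes are described here in 4 RNA-seq libraries of adult zebrafish heart. They were taken by symbol: every Ensembl gene ID whose symbol starts with itga or itgb was a member, apart from the binding proteins ITGB1BP1 and itgb3bp. This gave 35 of 32520 gene IDs, and 30 of the 35 reached 1 CPM (read counts scaled to library size) in at least 1 library, the filter for testing. No ID carried the symbol itga7, itgal or itgax, so these chains are not covered and the types are not full families. One of the 30, ITGBL1, encodes a secreted protein with integrin-like repeats and not a chain. The symbols ITGB1 (4 IDs), ITGB3 (2 IDs) and ITGA11 (2 IDs) are shared by several IDs, which are named with their ID. Reads of close paralogues may be divided between such IDs, so their levels are uncertain.

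All hearts came from the Ekkwill strain. The groups were hearts of LEN mutants at 3 days post-amputation (3 dpa), wild-type hearts at 3 dpa, uninjured hearts of LEN mutants and uninjured wild-type hearts, with 1 library in each. The mutants are homozygous for a deletion of LEN, an enhancer linked to leptin b that responds to regeneration, and the wild type carries both copies. How many hearts entered a library, their age and the control procedure of the uninjured fish are not given in the sources used here.

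The alpha chain largely sets what an integrin binds, and the beta chain links it through talin and kindlin to actin. Chains with beta2 or beta7 are known from leukocytes, alphaIIb with beta3 from platelets and their fish counterpart, the thrombocytes. Most of the others bind matrix, such as fibronectin and vitronectin (through the peptide motif RGD), collagen or laminin. In the injured zebrafish heart, leukocytes enter and a provisional matrix rich in fibronectin is laid down.

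Library totals ran from 31618442 to 35026983 counts. Cardiomyocyte markers summed to 21868 CPM in the mutant and 23052 CPM in the wild type at 3 dpa, against 42721 and 42627 CPM in the uninjured mutant and wild type. The wild-type uninjured library stood apart by liver genes: the liver marker list of 10 genes summed to 1235 CPM there and to 40.9 CPM in the mutant uninjured library. At 3 dpa it summed to 420 CPM in the mutant and 389 CPM in wild type, nearly all from the transferrin gene tfa. For example apoa1b, an apolipoprotein gene of liver, had 6 and 3 counts in the mutant and wild type at 3 dpa, 7 in the uninjured mutant and 8972 in the uninjured wild type. Printed wild-type injury ratios of integrin genes were therefore also taken against the mutant uninjured library. That value is given where the ratio moved by over 1.5-fold or lost a call. For genes of the other lists it is not given. Such a ratio compares 2 genotypes as well as 2 injury states, and their parts in it cannot be told apart. The uninjured genotype ratios and the differences of responses rest on the wild-type uninjured library.

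With 1 library in each group, a difference between 2 libraries has no replicate check. The log2 ratio of 2 libraries was taken on scaled CPM and carries a 95% counting interval, which covers counting error only. A gene passed the 2-fold threshold when its log2 ratio was at least 1 in size and the interval lay off equal abundance. For injury and for genotype as such, an additive model was also fitted over all genes with edgeR (genotype plus injury). It has 2 libraries on each side and 1 residual degree of freedom, and its error is the departure of the injury response of 1 genotype from the other. The words rose and fell are used for genes at an edgeR adjusted p below 0.05 in that model. Whether libraries came from separate clutches or days is not stated. The p-values rest on the spread between these 4 libraries, which edgeR shares in part across all tested genes. No spread within a group enters them.

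Integrin genes of several types were higher at 3 dpa. In the additive model 18 of the 30 rose and 2 fell, where 25.4% of all tested genes rose and 20.3% fell. In the mutant 13 members were past the 2-fold threshold upwards (14.7% of all genes) and 1 downwards (5.62%). In wild type 10 were past it upwards (13.2%) and 1 downwards (6.76%). The 10 were all among the 13, and the downward gene was ITGA8 both times. The leukocyte type gave 7 of the upward members in each genotype, all that the symbol rule placed in it. In wild type the others were 1 collagen, 1 laminin and 1 platelet type gene, of 4, 5 and 3 tested. None of the 6 RGD and tenascin genes or the 4 beta1 genes passed upwards in either genotype. The median log2 ratio of the 30 was 0.76 in the mutant and 0.65 in wild type, beside 0.04 and 0.03 over all tested genes. Against the uninjured library of the other genotype, 11 members were higher and 2 lower in the mutant at 3 dpa, and 8 were higher and 1 lower in wild type at 3 dpa. Scaling by total counts moved the median of all genes to 0.35 in the mutant and 0.29 in wild type, so that members within about that distance of 0 have no firm direction.

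**Figure D1:**
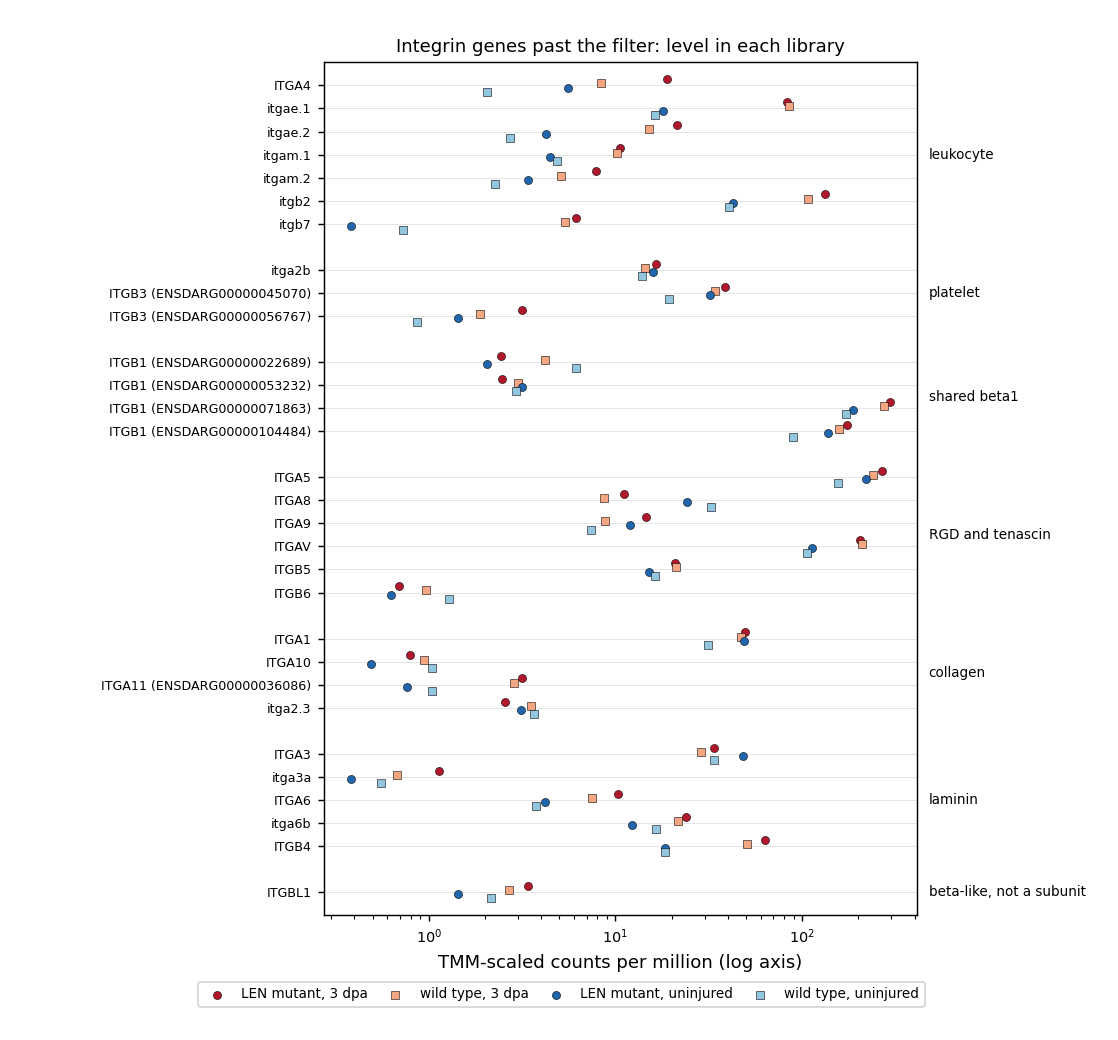
Level of the 30 tested integrin genes in each library, in TMM-scaled CPM on a log axis, grouped by type; circles are LEN mutants, squares wild type, with 3 dpa in red or orange and uninjured in blue shades. Both 3 dpa libraries lie to the right of both uninjured libraries for all 7 leukocyte genes, and to the left for ITGA8; levels of different genes are not scaled by length.

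The 7 leukocyte integrin genes all rose, and each was also past the 2-fold threshold in both genotypes. Their summed level was 279 CPM in the mutant and 237 CPM in wild type at 3 dpa, against 78.6 and 69.7 CPM in the uninjured mutant and wild type. The beta2 chain gene itgb2, shared by the leukocyte-specific integrins, had 5127 counts in the mutant and 4151 in wild type at 3 dpa, against 1217 and 1174 in the uninjured mutant and wild type. Both 3 dpa libraries were thus well above both uninjured ones. The log2 ratio of itgb2 was 1.63 in the mutant (95% counting interval, 1.55 to 1.73) and 1.41 in wild type (1.31 to 1.5), and its edgeR adjusted p was 6e-05.

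Its partner chain alphaM, which with beta2 forms a complement receptor of mammalian phagocytes, is encoded by itgam.1 and itgam.2. The gene itgam.1 had 413 counts in the mutant and 393 in wild type at 3 dpa, against 128 and 140 when uninjured. Its log2 ratios were 1.24 in the mutant (0.96 to 1.55) and 1.07 in wild type (0.79 to 1.36), with an edgeR adjusted p of 0.00098. The gene itgam.2 had 305 and 196 counts in the mutant and wild type at 3 dpa, against 98 and 65 when uninjured. In itgam.2 the mutant library was the higher in each state, and the injury log2 ratios were 1.19 (0.87 to 1.54) and 1.16 (0.77 to 1.61), with an edgeR adjusted p of 0.00205. In a fit without the genotype term the edgeR adjusted p was 0.0542. Against the mutant uninjured library the wild-type ratio of itgam.2 was 0.57 (0.22 to 0.94), under the 2-fold threshold.

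The alphaE chain pairs with beta7 in mammals and binds E-cadherin. Of its 2 genes, itgae.1 had 3208 counts in the mutant and 3246 in wild type at 3 dpa, against 517 and 468 when uninjured. Its ratios of 2.19 in the mutant (2.06 to 2.33) and 2.38 in wild type (2.24 to 2.52) came with an edgeR adjusted p of 1.86e-05, the lowest among the members. The other, itgae.2, had 828 and 578 counts in the mutant and wild type at 3 dpa, against 122 and 78 when uninjured. It stood 5.01-fold higher at 3 dpa in the mutant and 5.56-fold higher in wild type, whose log2 ratio of 2.45 became 1.81 against the mutant uninjured library.

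The beta7 gene itgb7 changed most of all members by size. It had 238 counts in the mutant and 207 in wild type at 3 dpa, against 11 and 21 counts in the uninjured mutant and wild type. The uninjured counts are low, and the log2 ratios of 3.80 in the mutant and 2.79 in wild type have wide intervals (3.13 to 5.02, and 2.24 to 3.61). The edgeR adjusted p of itgb7 was 0.000215. Against the mutant uninjured library its wild-type ratio was 3.62.

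ITGA4 encodes alpha4, which pairs with beta1 or beta7 and binds VCAM1 and fibronectin. It had 738 counts in the mutant and 323 in wild type at 3 dpa, against 160 in the uninjured mutant and 59 in the uninjured wild type. All 4 libraries differed here: the mutant was above wild type in each state, and 3 dpa above uninjured in each genotype. The injury log2 ratios were 1.76 in the mutant (1.52 to 2.02) and 2.01 in wild type (1.63 to 2.46), with an edgeR adjusted p of 0.000135. That call was lost in a fit without the genotype term. Without the wild-type uninjured library, the wild-type 3 dpa level stood only 0.59 above that of the uninjured mutant on the log2 scale. That value also holds the genotype difference, which was 1.42 in uninjured hearts (mutant over wild type).

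Most leukocyte markers moved with these genes. Of 21 tested IDs of the leukocyte marker list 18 were past the 2-fold threshold upwards in the mutant and 15 in wild type, and 1 and 2 downwards. Over all genes the shares were 14.7% and 13.2% upwards, and 5.62% and 6.76% downwards. The downward IDs were il2rb in the mutant, and lck and mmp13a in wild type, named after their values were seen. In the mutant and wild type, il2rb stood at log2 ratios of -1.53 and -0.85, and lck at -0.13 and -1.48. For mmp13a the ratios were 1.41 and -1.06. The list's 29 IDs come from 20 matched symbols, and several tested IDs share the symbol MFAP4 or MPEG1. The IDs are therefore not all separate markers. The whole list of 29 IDs summed to 851 CPM in the mutant and 793 CPM in wild type at 3 dpa, against 213 and 221 CPM when uninjured. That is 3.99-fold in the mutant and 3.59-fold in wild type, beside 3.56-fold and 3.40-fold for the sum of leukocyte integrins. Among its members MPEG1 ENSDARG00000055290, a macrophage gene, had 3942 and 3576 counts in the mutant and wild type at 3 dpa, against 518 and 483 when uninjured. Of defining markers chosen after their values were seen, the neutrophil gene lyz had 111 and 116 counts in the mutant and wild type at 3 dpa, against 93 and 86 when uninjured, and the T cell gene cd8a had 0 to 2 counts. Between 3 and 5 IDs of the list had 3 counts or fewer in a given library. In bulk hearts, a change in the number of cells of a type and a change in RNA per cell cannot be told apart, and the part of leukocyte number in the integrin ratios was not tested.

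**Figure D2:**
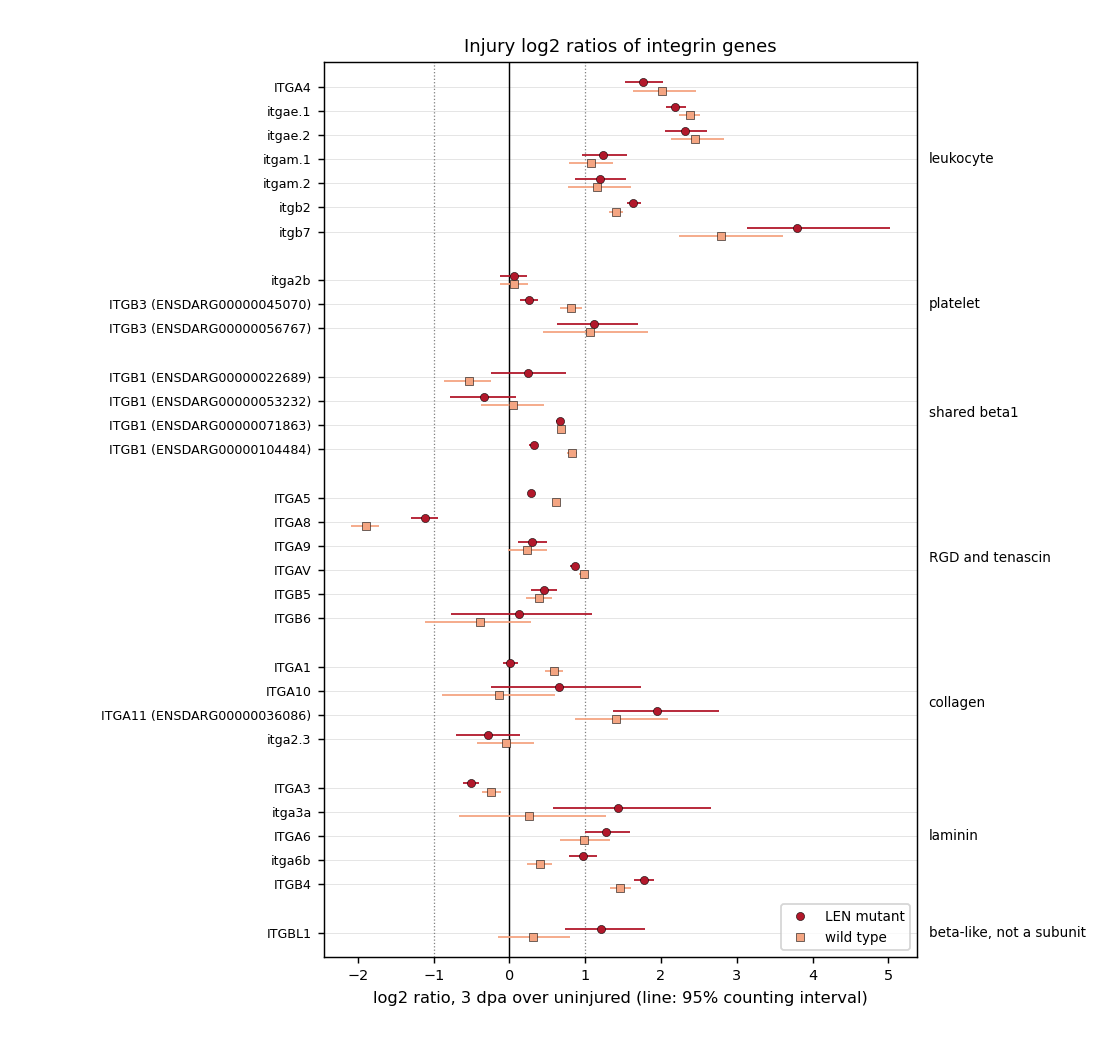
Injury log2 ratios (3 dpa over uninjured) of the 30 tested integrin genes in LEN mutants (circles) and wild type (squares), with 95% counting intervals as lines and dotted lines at -1 and 1. The 7 leukocyte genes lie above 1 in both genotypes, and ITGA8 lies below -1 in both, at -1.12 in the mutant and -1.90 in wild type.

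The platelet-type chains did not move as 1 group. The alphaIIb gene itga2b, a thrombocyte marker in zebrafish, had 638 and 553 counts in the mutant and wild type at 3 dpa, against 453 and 399 when uninjured. After scaling this was a log2 ratio of 0.06 in each genotype, with intervals of -0.12 to 0.23 in the mutant and -0.13 to 0.25 in wild type, and an edgeR adjusted p of 0.741. With upper-quartile scaling its sign turned in both genotypes. Of the 2 genes of beta3, which pairs with alphaIIb and with alphaV, ITGB3 ENSDARG00000056767 rose with 123 and 72 counts in the mutant and wild type at 3 dpa, against 41 and 25 when uninjured. Its log2 ratios were 1.11 in the mutant (0.63 to 1.69) and 1.06 in wild type (0.44 to 1.83), and its edgeR adjusted p was 0.0197. Against the mutant uninjured library the wild-type ratio of that ID was 0.38 (-0.18 to 0.98), an interval that includes 0. The more counted ITGB3 ENSDARG00000045070 also rose, with 1496 and 1308 counts in the mutant and wild type at 3 dpa, against 921 and 559 when uninjured (edgeR adjusted p = 0.0214). Its wild-type log2 ratio of 0.81 became 0.09 against the mutant uninjured library (-0.04 to 0.21). Both calls were lost with DESeq2 and in a fit without the genotype term, and that of ITGB3 ENSDARG00000045070 also with upper-quartile scaling.

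Thrombocyte markers were mixed as well. Of 11 tested IDs, itga2b among them, 6 were past the 2-fold threshold upwards in each genotype. Over all genes 14.7% were in the mutant and 13.2% in wild type. The platelet glycoprotein gene GP1BB, chosen after its values were seen, had 3775 and 5659 counts in the mutant and wild type at 3 dpa, against 4091 and 4856 when uninjured. The list summed to 648 CPM in the mutant and 725 CPM in wild type at 3 dpa, against 413 and 442 CPM when uninjured. Both THBS1 IDs gave 106 and 215 CPM of the mutant sum at 3 dpa, against 52.5 and 101 CPM when uninjured. In wild type they gave 111 and 239 CPM, against 48.9 and 94.3 CPM. The gene f13a1b, named after its values were seen, gave 110 and 107 CPM in the mutant and wild type at 3 dpa. When uninjured it gave 34.6 and 47.5 CPM. THBS1 is also in the list of RGD ligands below. By log2 ratio, 9 of the 11 IDs were above 0 in each genotype. Both IDs of the kindlin-3 gene FERMT3, both of the thrombospondin gene THBS1, and PLEK were among the 6. Both FERMT3 IDs are also in the adhesome list below. The markers gp9, mpl and NFE2, chosen after their values were seen, were not past the threshold in either genotype, nor were itga2b and GP1BB. GP1BB had log2 ratios of -0.55 in the mutant (-0.62 to -0.49) and -0.19 in wild type (-0.25 to -0.14). Those of gp9 were -0.51 (-0.64 to -0.38) and -0.25 (-0.38 to -0.12). For mpl they were 0.03 and 0.30, and for NFE2 0.05 and 0.06.

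Beta1 joins most of the matrix-binding alpha chains. Its most counted gene, ITGB1 ENSDARG00000071863, had 11476 counts in the mutant and 10601 in wild type at 3 dpa, against 5373 and 4949 when uninjured. It rose by log2 ratios of 0.66 in the mutant (0.61 to 0.70) and 0.68 in wild type (0.64 to 0.73), at an edgeR adjusted p of 0.00157. ITGB1 ENSDARG00000104484 rose too, with 6703 and 6064 counts in the mutant and wild type at 3 dpa, against 3965 and 2571 when uninjured (edgeR adjusted p = 0.012). Here the uninjured mutant lay between the uninjured wild type and the 3 dpa libraries. Its wild-type ratio of 0.82 became 0.19 against the mutant uninjured library, and its edgeR adjusted p was 0.141 in a fit without the genotype term.

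The remaining pair of beta1 IDs was low. ITGB1 ENSDARG00000022689 had 95 counts in the mutant and 161 in wild type at 3 dpa, against 59 in the uninjured mutant and 177 in the uninjured wild type. Its wild-type injury ratio of -0.54 became 1.01 against the mutant uninjured library. ITGB1 ENSDARG00000053232 ranged from 84 to 115 counts over the 4 libraries. Neither passed the additive injury test, with edgeR adjusted p values of 0.574 and 0.647.

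Of the 6 tested RGD and tenascin receptor genes, 3 rose and 1 fell. ITGA5 encodes alpha5, the main fibronectin receptor chain with beta1. It had 10409 and 9162 counts in the mutant and wild type at 3 dpa, against 6283 in the uninjured mutant and 4478 in the uninjured wild type. Its log2 ratio was 0.29 in the mutant (0.24 to 0.33) and 0.62 in wild type (0.57 to 0.67), at an edgeR adjusted p of 0.0171. The call was lost with upper-quartile scaling (edgeR adjusted p = 0.051) and without the genotype term (edgeR adjusted p = 0.155). Against the mutant uninjured library the wild-type 3 dpa level of ITGA5 was 0.12 higher on the log2 scale.

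ITGAV, the alphaV chain that binds vitronectin and latent TGF-beta with several beta partners, rose. It had 7967 and 7996 counts in the mutant and wild type at 3 dpa, against 3248 and 3049 when uninjured. The log2 ratios of 0.86 in the mutant (0.80 to 0.91) and 0.98 in wild type (0.92 to 1.04) were just under the 2-fold threshold, and the edgeR adjusted p was 0.000404. Its partner ITGB5 rose less, with log2 ratios of 0.46 in the mutant (0.29 to 0.63) and 0.39 in wild type (0.22 to 0.56), a call lost with DESeq2 and with upper-quartile scaling. The other beta chain genes of the RGD type were scarce: ITGB6 had 18 to 37 counts per library, and ITGB8, with 15 to 25, missed the filter. Beta3, also a partner of alphaV, is given with the platelet type, where ITGB3 ENSDARG00000045070 had 559 to 1496 counts.

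ITGA8 was the member that fell most. It encodes alpha8, a receptor chain for nephronectin and fibronectin. It had 432 counts in the mutant and 333 in wild type at 3 dpa, against 694 in the uninjured mutant and 936 in the uninjured wild type. Both 3 dpa libraries were below both uninjured ones. The log2 ratio was -1.12 in the mutant (-1.30 to -0.95) and -1.90 in wild type (-2.09 to -1.72), with an edgeR adjusted p of 0.00063. Scaled by total counts, the mutant ratio was -0.80. Its ligand gene NPNT had 470 and 474 counts at 3 dpa in the mutant and wild type, against 683 and 496 when uninjured, with log2 ratios of -0.97 and -0.48. NPNT is given as the ligand of ITGA8, a choice made after its values were seen.

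Of the 4 tested collagen receptor genes only ITGA11 ENSDARG00000036086, known in mammals from fibroblasts, rose. It had 122 and 110 counts in the mutant and wild type at 3 dpa, against 22 and 30 when uninjured. Its log2 ratios were 1.95 in the mutant (1.37 to 2.76) and 1.41 in wild type (0.87 to 2.09), at an edgeR adjusted p of 0.00378. The alpha1 gene ITGA1 had 1920 and 1808 counts in the mutant and wild type at 3 dpa, against 1405 in the uninjured mutant and 903 in the uninjured wild type. Its log2 ratio was 0.01 in the mutant (-0.09 to 0.11) and 0.59 in wild type (0.47 to 0.70), and its edgeR adjusted p of 0.138 missed the threshold. Against the mutant uninjured library the wild-type ratio of ITGA1 was -0.06 (-0.16 to 0.05). ITGA10 and itga2.3 had edgeR adjusted p values of 0.713 and 0.587. The other collagen-type IDs missed the filter: ITGA11 ENSDARG00000007950 with 8 to 12 counts, ITGA2 with 5 to 13, and itga2.1 with 0 to 7.

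Fibroblast and epicardial markers, of which 12 were tested, mostly moved with ITGA11. They were past the 2-fold threshold upwards for 9 IDs in the mutant (14.7% of all genes) and 10 in wild type (13.2%). Their sum was 8588 CPM in the mutant and 10177 CPM in wild type at 3 dpa, against 1545 and 1806 CPM when uninjured. The collagen genes col1a1a, COL1A2 and COL5A1, named after their values were seen, gave 2468, 2693 and 1422 CPM in the mutant at 3 dpa. They are also in the list of collagen ligands below. The median log2 ratio of the 12 was 1.82 in the mutant and 1.93 in wild type. PDGFRA and POSTN ENSDARG00000043806, named after their values were seen, were under the threshold in both genotypes. Their log2 ratios were 0.16 and 0.47 in the mutant, and 0.24 and 0.51 in wild type. All 12 markers were past the filter in these libraries, and their part in the ITGA11 ratio was not tested.

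Among 5 tested laminin receptor genes 3 rose and 1 fell. The beta4 chain pairs only with alpha6, and in epithelia anchors hemidesmosomes. Its gene ITGB4 had 2447 counts in the mutant and 1949 in wild type at 3 dpa, against 527 and 531 when uninjured. The 2 uninjured libraries were alike, and the log2 ratios were 1.77 in the mutant (1.64 to 1.91) and 1.46 in wild type (1.32 to 1.60), at an edgeR adjusted p of 7.52e-05.

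Both genes of its partner alpha6 rose. ITGA6 had 400 and 286 counts in the mutant and wild type at 3 dpa, against 121 and 108 when uninjured, with log2 ratios of 1.27 in the mutant (0.99 to 1.59) and 0.98 in wild type (0.67 to 1.32). The gene itga6b had 931 and 831 counts at 3 dpa in the mutant and wild type, against 351 and 473 when uninjured. Its log2 ratios were 0.97 in the mutant (0.79 to 1.15) and 0.40 in wild type (0.23 to 0.56). Both were under the 2-fold threshold, and the edgeR adjusted p of itga6b was 0.0105. The third gene of this kind, itga6l, had at most 2 counts in any library, below the floor of 3 counts.

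The alpha3 genes did not move together. ITGA3 fell, with 1316 and 1098 counts in the mutant and wild type at 3 dpa, against 1387 and 971 when uninjured. Its log2 ratio was -0.51 in the mutant (-0.62 to -0.40) and -0.24 in wild type (-0.36 to -0.11), at an edgeR adjusted p of 0.031. Scaled by total counts, the wild-type ratio of ITGA3 turned to 0.03 and the additive call was lost. The call was also lost with DESeq2 and in a fit without the genotype term (edgeR adjusted p = 0.216). The paralogue itga3a, at 11 to 44 counts, had a log2 ratio of 1.43 in the mutant (0.58 to 2.66), past the 2-fold threshold, and one of 0.26 in wild type (-0.67 to 1.28). Its edgeR adjusted p was 0.207. ITGBL1, too, passed in the mutant, with 132 and 103 counts in the mutant and wild type at 3 dpa, against 41 and 62 when uninjured. Its log2 ratio was 1.21 in the mutant (0.73 to 1.79) and 0.31 in wild type (-0.15 to 0.80), with an edgeR adjusted p of 0.0832. Against the wild-type uninjured library the mutant ratios were 0.95 for itga3a and 0.64 for ITGBL1, both under the threshold.

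Ligands of the same classes were set beside their receptors. Of 18 tested fibronectin, tenascin and other RGD ligand genes, 7 were past the 2-fold threshold upwards in each genotype (14.7% of all genes in the mutant and 13.2% in wild type). None were past it downwards in the mutant (5.62% of all genes) and 3 in wild type (6.76%), among them both vitronectin IDs. The fibronectin gene FN1 ENSDARG00000019815 had 115056 and 109605 counts in the mutant and wild type at 3 dpa, against 2301 and 3324 when uninjured. The class summed to 12696 CPM in the mutant and 11950 CPM in wild type at 3 dpa, against 2352 and 2007 CPM when uninjured. That is 5.40-fold in the mutant and 5.95-fold in wild type, beside 1.35-fold and 1.53-fold for the RGD and tenascin receptor genes. The FN1 IDs alone gave 8538 and 2962 CPM of the ligand sum in the mutant at 3 dpa. By the median log2 ratio over tested genes, the ligands stood at 0.70 in the mutant and 0.52 in wild type, and the receptor genes at 0.30 and 0.31.

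Collagen and collagen receptor sums also differed in fold. Of 10 tested collagen genes 8 were past the 2-fold threshold upwards in each genotype (14.7% of all genes in the mutant, 13.2% in wild type). COL5A1 was among them, with log2 ratios of 2.94 in the mutant and 2.99 in wild type. The sum of the 10 collagen genes stood 5.18-fold and 5.41-fold higher at 3 dpa in the mutant and wild type. That of the collagen receptor genes stood at 1.05-fold and 1.46-fold. Of that receptor sum, 49.4 of 56.6 CPM came from ITGA1 in the mutant at 3 dpa. Laminins and their receptors were closer in sum, at 1.35-fold and 1.4-fold for the 12 laminin genes and 1.58-fold and 1.5-fold for the receptor genes. Their median log2 ratios over tested genes were 0.57 in the mutant and 0.66 in wild type for laminins. For the laminin receptor genes the medians were 1.27 and 0.40. Of the 11 tested laminin genes 2 were past the threshold upwards in the mutant (14.7% of all genes) and 3 in wild type (13.2%).

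**Figure D3:**
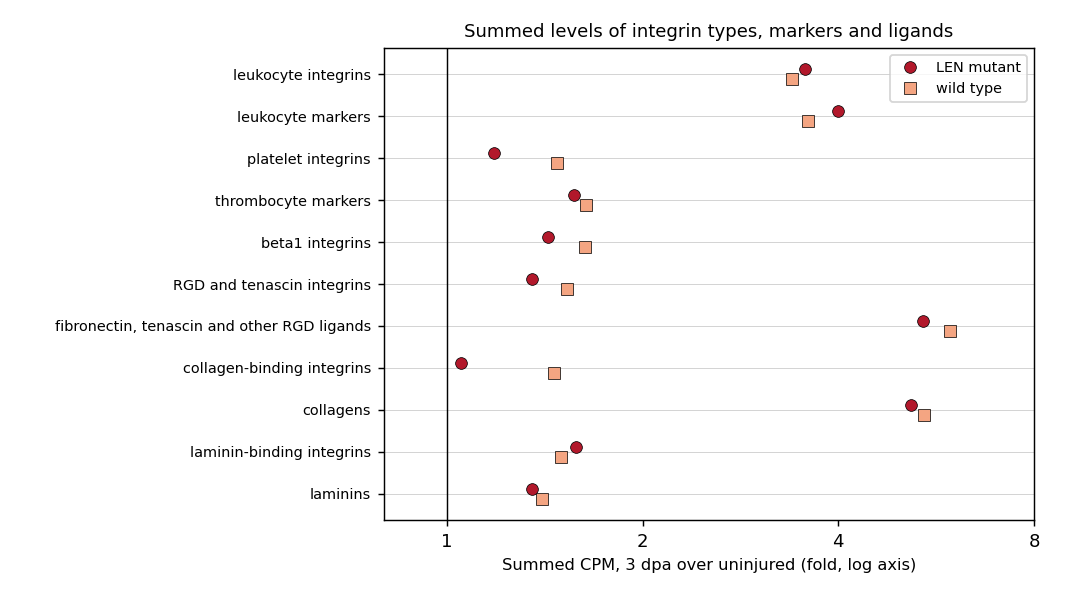
Summed CPM at 3 dpa over uninjured, as a fold on a log axis, for integrin types and for the matched marker and ligand lists, in LEN mutants (circles) and wild type (squares). Leukocyte integrins (3.56-fold and 3.40-fold) lie near leukocyte markers (3.99-fold and 3.59-fold), and the sums of RGD ligands (5.40-fold and 5.95-fold), which FN1 dominates, and of collagens (5.18-fold and 5.41-fold) lie to the right of those of their receptors.

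Plasma ligands and cell surface ligands gave another picture. Of that list's 18 tested genes, 6 were past the 2-fold threshold upwards in the mutant and none downwards (14.7% and 5.62% of all genes). In wild type 4 were past it upwards and 4 downwards (13.2% and 6.76%). The fibrinogen gene fga, a liver product and ligand of alphaIIb with beta3, had 4 and 0 counts in the mutant and wild type at 3 dpa, against 0 in the uninjured mutant and 1697 in the uninjured wild type. FGB, FGG and both vitronectin (VTN) IDs had the same pattern, and these fall in the library with liver transcripts. The alpha4 ligand gene vcam1b had 5522 and 5088 counts in the mutant and wild type at 3 dpa, against 6363 and 7400 when uninjured; it was added to the named genes after its values were seen.

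Downstream of the receptors, 45 adhesome genes (talins, kindlins, kinases and adaptors) were tested. In the additive model 17 rose and 14 fell, beside 25.4% and 20.3% of all genes. Those past the 2-fold threshold numbered 10 upwards and 4 downwards in the mutant (14.7% and 5.62% of all genes), and 9 and 3 in wild type (13.2% and 6.76%). The highest wild-type ratios were those of the tetraspanin gene cd9b (3.47 in the mutant and 2.35 in wild type), the Src-family kinase gene LYN (2.10 and 2.07), PTK2B ENSDARG00000022841 (1.59 and 1.99) and APBB1IP (2.01 and 1.96). APBB1IP encodes RIAM, which brings talin to integrins in blood cells. When uninjured, the genotype log2 ratio was -0.90 for cd9b and 0.66 for PTK2B ENSDARG00000022841, so their wild-type injury ratios depend on the baseline library. It was 0.12 for LYN and 0.17 for APBB1IP. The talin gene TLN1, chosen after its values were seen, had 19381 and 17578 counts in the mutant and wild type at 3 dpa, against 14270 and 11108 when uninjured, with log2 ratios near 0.00 in the mutant and 0.25 in wild type.

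Mutant and wild-type responses to amputation were then compared. The 2 injury contrasts share no library. Their signs were the same for 26 of 30 integrin genes (86.7%), where 82.1% of all tested genes had the same sign. For the difference of the responses (mutant minus wild type) 0 of 30 members passed the 2-fold threshold, where 5.82% of all tested genes did. The largest differences were 1.17 for itga3a (-0.07 to 2.41) and 1.01 for itgb7 (-0.01 to 2.04), both with intervals that reach 0. Among members whose interval lay off 0, the highest were ITGBL1 (0.90, 0.23 to 1.57), and ITGB1 ENSDARG00000022689 and ITGA8 at 0.79 (0.23 to 1.34) and 0.78 (0.53 to 1.03). The lowest were ITGA1 at -0.57 (-0.73 to -0.42), ITGB3 ENSDARG00000045070 at -0.55 (-0.73 to -0.36) and ITGB1 ENSDARG00000104484 at -0.50 (-0.59 to -0.42). In these 3 genes the uninjured mutant was above the uninjured wild type, and the 3 dpa libraries were close. No error between hearts enters these intervals.

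Between the genotypes ITGA4 differed in both states. The mutant had 19.0 CPM at 3 dpa against 8.42 CPM in wild type, and 5.58 CPM when uninjured against 2.05 CPM in wild type. The log2 ratio, mutant over wild type, was 1.17 at 3 dpa (0.98 to 1.37) and 1.42 in uninjured hearts (1.01 to 1.90), and the additive model gave 1.28 with an edgeR adjusted p of 0.00915. ITGA4 was the only one of 30 members past the 2-fold threshold upwards in each state, where 2.24% of all genes passed at 3 dpa and 3.92% in uninjured hearts. None passed downwards at 3 dpa (0.769% of all genes).

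In uninjured hearts 2 members passed downwards (4.09% of all genes). ITGB1 ENSDARG00000022689 was 2.06 CPM in the mutant and 6.15 CPM in wild type, a log2 ratio of -1.55 (-2.03 to -1.15). At 3 dpa its ratio was -0.77 (-1.16 to -0.41), and the additive model gave -1.16 with an edgeR adjusted p of 0.0621. ITGA10, with 14 counts in the mutant and 30 in wild type, stood at -1.01 (-2.12 to -0.13), and its interval at 3 dpa included 0.

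In the additive model 2 of the 30 members were higher in the mutant and 0 lower, where 2.50% of all genes were higher and 0.763% lower. Besides ITGA4 this was ITGA9, whose product alpha9 binds tenascin-C. ITGA9 had 569 counts in the mutant and 336 in wild type at 3 dpa, and 340 in the mutant and 214 in wild type when uninjured. Its log2 ratios were 0.74 (0.54 to 0.94) and 0.67 (0.42 to 0.93), both under the 2-fold threshold, and its edgeR adjusted p was 0.0415. Scaled by total counts its edgeR adjusted p was 0.0698. With DESeq2 the adjusted p of ITGA9 was 0.269 and that of ITGA4 was 0.00485. Without the injury term both calls were lost, at an edgeR adjusted p of 1.

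Leukocyte markers and gene span were set beside these genotype ratios. Leukocyte markers summed to 1.07-fold of wild type in the mutant at 3 dpa and 0.965-fold when uninjured. Of the 21 tested, 1 was past the 2-fold threshold upwards at 3 dpa (2.24% of all genes). When uninjured, 3 were past it downwards (4.09%). The macrophage receptor gene csf1ra, chosen after its values were seen, had 3215 counts in the mutant and 1930 in wild type at 3 dpa, and 614 and 385 when uninjured. Its log2 ratios, mutant over wild type, were 0.72 and 0.68, where the median of the 21 tested markers was 0.05 and -0.26. Of the 21, 13 were above 0 at 3 dpa and 8 when uninjured. Long genes tended to be higher in the mutant: over 11830 tested genes with a span in the RefSeq list of assembly GRCz12tu, Spearman's rho between span and the genotype log2 ratio was 0.284 at 3 dpa and 0.318 when uninjured. The spans of ITGA4 and ITGA9 are 108 and 200 kb, against a median of 18.0 kb over those genes and 58.1 kb over integrin genes. Among members not called for genotype in the additive model, the spans of ITGA8, ITGA5 and ITGA1 are 130, 112 and 111 kb. Their genotype log2 ratios were 0.35, 0.17 and 0.07 at 3 dpa, and -0.43, 0.49 and 0.64 when uninjured. Over the 19 integrin genes with a span, rho was 0.281 at 3 dpa and 0.137 when uninjured. The part of gene length in the ratios of ITGA4 and ITGA9 was not tested.

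**Figure D4:**
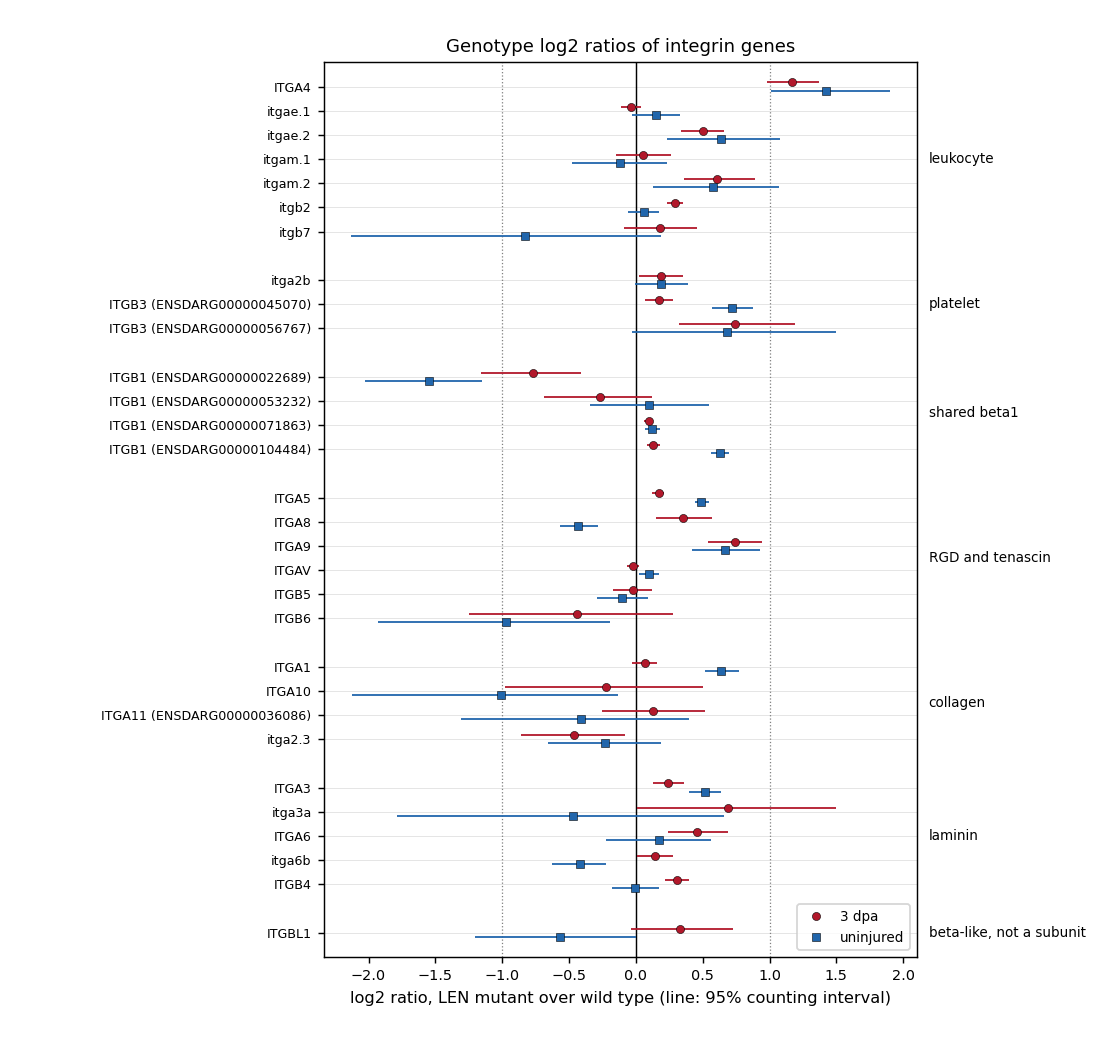
Genotype log2 ratios (LEN mutant over wild type) of the 30 tested integrin genes at 3 dpa (circles) and in uninjured hearts (squares), with 95% counting intervals as lines and dotted lines at -1 and 1. ITGA4 is the only member above 1 in each state, at 1.17 and 1.42, and ITGB1 ENSDARG00000022689 is the lowest in each, at -0.77 and -1.55.

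Of the 45 adhesome genes, 4 were past the 2-fold threshold upwards in the mutant at 3 dpa and 0 downwards, where 2.24% and 0.769% of all genes were. When uninjured, 6 were past it upwards and 1 downwards, where 3.92% and 4.09% of all genes were. The 4 passed in both states: FERMT2 (kindlin-2), PXN ENSDARG00000060766 (a paxillin), TNS1 and tns2a (tensins). They are named because the count is small, after their values were seen. FERMT2 had 1557 counts in the mutant and 665 in wild type at 3 dpa, and 2084 and 632 when uninjured, with log2 ratios of 1.21 and 1.72. PXN ENSDARG00000060766 had 777 counts in the mutant and 237 in wild type at 3 dpa, and 944 and 203 when uninjured, with log2 ratios of 1.68 and 2.21. The more counted PXN ENSDARG00000088590, also named after its values were seen, did not go with it. It had 1675 counts in the mutant and 1648 in wild type at 3 dpa, and 1250 and 1157 when uninjured. Its log2 ratios were 0.00 and 0.12. The tensin genes had log2 ratios of 1.11 and 1.13 for TNS1 and 1.66 and 2.07 for tns2a, at 3 dpa and when uninjured. In the additive model 6 of the 45 were higher in the mutant and 0 lower (2.50% and 0.763% of all genes). Talin and kindlin act on the inner end of beta chains. Genotype log2 ratios of the tested beta chain genes ran from -0.77 (ITGB1 ENSDARG00000022689) to 0.74 (ITGB3 ENSDARG00000056767) at 3 dpa, and from -1.55 (ITGB1 ENSDARG00000022689) to 0.72 (ITGB3 ENSDARG00000045070) when uninjured.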

How the data were processed

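Per the file headers, each library's table holds raw counts per Ensembl gene ID from 1 file of first reads of lane 8; the deposited counts are whole numbers and not normalized. The submitters' processing notes name HISAT2, featureCounts and the build GRCz11, without versions; annotation release, strand setting and the handling of multi-mapping reads are not given in the sources used here. A gene name table gave symbols for 29201 of 32520 IDs. Libraries were scaled with TMM in edgeR 4.0.16 (R 4.3.3). Log2 CPM used a prior count of 2. The filter was 1 scaled CPM in at least 1 library (16509 genes). Intervals of 2-library ratios are exact conditional binomial (Clopper-Pearson, 95%); those of differences of ratios use the delta method. Intervals and the floor of 3 counts, 0.0772 to 0.105 scaled CPM, cover counting error only. Folds are ratios of scaled CPM. The additive model was edgeR's quasi-likelihood test, with Benjamini-Hochberg adjustment over all 16509 genes; DESeq2 1.42.0 was an alternative. The 2-library rule and the edgeR model were checked on simulated counts; DESeq2 was not. Tables, intervals and plots were made in Python 3.11.15 (scipy 1.17.1).

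Members and lists were chosen with earlier results of these data known. Integrin genes were typed by symbol. Values are given for members past a threshold or most counted in their type; from each other list at most 4 genes are named, those past the threshold with the largest wild-type injury ratios, and any others are marked as chosen after their values were seen. Of the list symbols, 80% or more were matched, apart from the erythroid list (5 of 7), which is not used. Alternatives covered scaling, prior count, filter, fold threshold, baseline library, block and tool. No sequences are shown, since the reference tables used here hold none.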

Additional observations from a re-analysis of the deposited data

Results flagged for a closer look

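For 2 genes the genotype difference pointed in opposite directions at 3 dpa and in uninjured hearts, with both counting intervals off 0. The difference was not tested against variation between hearts. ITGA8 was higher in the mutant at 3 dpa (log2 ratio 0.35, 0.15 to 0.57) and lower in the uninjured mutant (-0.43, -0.57 to -0.28), a difference of 0.78. The laminin receptor gene itga6b was at 0.14 (0.01 to 0.28) at 3 dpa and at -0.42 (-0.63 to -0.22) when uninjured, a difference of 0.57.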

How the results depend on the processing

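The labels number no replicates, so no libraries were paired by number; the additive model instead blocks on the other factor. Without that block, 12 integrin genes rose and 1 fell with injury, and 0 were higher in the mutant, against 18, 2 and 2 with it. Leaving out 1 library leaves the model no residual degree of freedom, and the values that remain are the 2-library ratios.

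DESeq2 gave 1 fall with injury and 1 gene higher in the mutant. Total-count scaling gave 0 members lower in the mutant injury contrast, 1 past the threshold for the difference of responses, and in the additive model 1 fall and 1 gene higher in the mutant; that additive fit and its upper-quartile counterpart were chosen after seeing the data. A filter of 10 CPM left 7 members higher in mutant injury and 6 in wild-type injury, and 0 lower in uninjured mutants, with fewer genes tested. With no filter, 2 members were lower in mutant injury, 1 differed in response, and 1 was lower in the mutant in the additive model. With the uninjured library of the other genotype as baseline, 2 were lower in the mutant. A 1.5-fold threshold gave 17 higher in wild-type injury, 5 higher and 1 lower by genotype at 3 dpa, 7 higher in uninjured mutants, and 3 that differed in response. A prior count of 10 left 1 lower in uninjured mutants, and a prior count of 0.5 gave 1 that differed in response. At an adjusted p below 0.1, 1 member was lower in the mutant in the additive model. The causes of these changes were not tested. Over single called genes, the call was kept in 205 of 216 alternative values of 2-library ratios and lost in 11. The filter settings leave a 2-library ratio as it was, so their values among the 216 could not lose a call. In the additive model it was kept in 113 of 132 and lost in 19. None of these called values reversed its direction. Members under about 30 counts have wide counting intervals, and no setting supplies the variation between hearts that 1 library per group lacks.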
